A study of Mus musculus with 18 samples.

Results

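The data described here come from the infarcted left ventricle of the mouse 72 h after the left anterior descending coronary artery was tied, set against sham-operated hearts. The members are the 3 libraries whose labels give 72 h of ligation (MI 72 h, where MI is myocardial infarction) and the 3 sham libraries, 6 of the 18 libraries of the time course, and every gene of the deposited count table (30583 genes). All mice were 12-week-old males of the strain the labels spell C57BL/6JR, anaesthetised with pentobarbital, and carried no transgene or other genetic change that the labels mention. MI mice had a permanent ligature around the artery. In sham mice a suture was passed at what the labels call the inferior artery and left untied, so both groups share the anaesthesia and the opened chest. Each library is 1 mouse, the tissue is myocardium, from the infarcted region in MI mice, and RNA was selected for poly(A) tails.

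A permanent occlusion kills the cardiomyocytes downstream of the ligature, and the mouse heart cannot replace them. Dead muscle is first invaded by neutrophils, then by monocytes that become macrophages and clear debris. Resident fibroblasts then divide, turn into contractile myofibroblasts and lay down the collagen scar that holds the wall together.

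Depth was similar in the groups, with 21.3 to 23.5 M (mega) counts in the sham libraries and 21.9 to 23.7 M at 72 h, but the counts were spread differently. All mitochondrial genes, ribosomal and transfer RNAs included, took 23.8% to 26.1% of the sham counts and 8.41% to 10.5% at 72 h, and the 20 most abundant genes of each library took 33.1% to 35.0% and 15.0% to 16.8%. The labels call the cells cardiomyocytes, yet the libraries held markers of many cell types, so they are read here as whole tissue. In sham replicates 1, 2 and 3, cardiomyocyte Myh6 held 24639, 23160 and 22722 CPM (counts per M counts, scaled by the TMM method), and endothelial Pecam1 (230.3, 223 and 236 CPM), fibroblast Dcn (400.1, 426 and 409.6 CPM) and pericyte Rgs5 (612, 645 and 636 CPM) were present too. Adipocyte Adipoq and Plin1, atrial Sln, skeletal Myh1 and T cell Cd3e and Cd3d averaged at most 0.4195 CPM in either group. Other members of those lists were higher. The atrial list summed to 97.4 to 215 CPM in sham and 611 to 688 CPM at 72 h, most of it Nppa. The adipocyte list summed to 655 to 703 CPM in sham and 344 to 405 CPM at 72 h, most of it Fabp4. The skeletal muscle list includes Ckm and Acta1, which heart muscle also expresses. It summed to 1411 to 1447 CPM in sham and 453 to 645 CPM at 72 h. For the T and NK cell list these sums were 4.71 to 6.02 and 21.3 to 28.2 CPM. In such bulk tissue, fewer cells of a type and less RNA per cell cannot be told apart, and neither can more cells and more RNA per cell.

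Of the 16311 genes with enough counts to test, 10831 (66.4%) differed between 72 h and sham at an adjusted p under 0.05 (edgeR), 5572 (34.2%) higher and 5259 (32.2%) lower. The change was at least 2-fold for 3203 of the higher genes (19.6% of those tested) and for 2475 of the lower genes (15.2%), or 5678 in all (34.8%). The 3 libraries at 72 h lay above all 3 sham libraries for 39.3% of genes and below them for 36.5%, so the groups did not overlap for 75.8%. Large increases outnumbered large decreases: 986 genes rose and 65 fell by 8-fold or more. Every count below has to be read against these shares, since a list with about 34.2% of its genes higher resembles the transcriptome at large. Directions depend on the scaling. Under TMM the median log2 fold change of all tested genes was 0.03 and 51.4% of called genes were higher. With library totals alone the median moved to 0.61 and 79.9% of called genes were higher, and with totals that left out the mitochondrially encoded genes these were 0.34 and 68.6%. Among the list members tested, all 460 called higher stayed so under library totals, while of 334 called lower 259 stayed lower, 71 lost the call and 4 were called higher. Log2 fold changes below are those of the TMM fit, 72 h over sham, with their standard errors (SE).

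The 10 largest increases among genes with a mean of 50 counts are given here, with roles as background. Spp1 codes for osteopontin, an adhesive glycoprotein of macrophages and wounds. It held 0.101, 0.104 and 0.267 CPM in sham and 958, 1198 and 1201 CPM at 72 h (log2 fold change 12.70 ± 0.95, adjusted p = 5.6e-08), with 18.8% of its exon length shared with a predicted gene on the same strand. Cthrc1, a secreted protein that marks activated cardiac fibroblasts, went from 0.101, 0.0519 and 0.222 CPM to 116, 135 and 127 CPM (9.86 ± 0.32, adjusted p = 2.2e-13). Arg1, the arginase of wound macrophages, went from 0.0506, 0.0519 and 0.178 CPM to 86.6, 111 and 103 CPM (9.92 ± 1.34, adjusted p = 2.1e-05). In all 3 genes every 72 h library was far above every sham library, and the rule that chose them required that the groups not overlap. Their sham values rest on a few reads per library, too few for a stable fold, and the SE can be smaller than the counting error. Sprr1a, a cornified envelope protein known from stressed cardiomyocytes, had 3 counts in the sham libraries together and 74.3, 97.9 and 81.0 CPM at 72 h, a count ratio of 1736 (95% interval 594 to 8419.6). Cd300lf, a myeloid inhibitory receptor, had 1 sham count and 24.1, 26.6 and 27.8 CPM at 72 h, a ratio of 1610.4 (95% interval 289 to 63634). The intervals on both ratios cover counting error only, and that for Cd300lf is wide because it rests on that single count. The other 5 had no count in any sham library, so only bounds can be given, taken against 3 counts per sham library. Cemip, a hyaluronan-degrading protein, was at least 89.0-fold higher, and Crct1, an epidermal gene, at least 64.3-fold. The bound was 50.8-fold for Sirpb1c, a myeloid signal regulatory protein, 33.8-fold for Stra6l, a retinol transporter, and 31.3-fold for the scavenger receptor Marco.

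**Figure D1:**
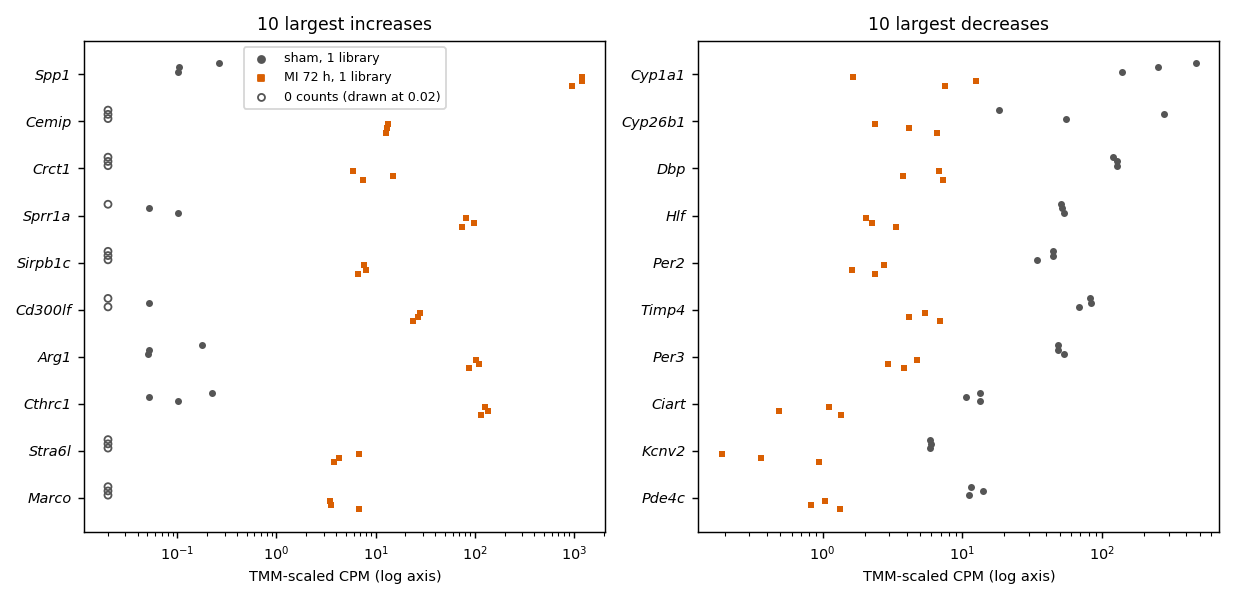
TMM-scaled CPM (log axis) of the 10 largest increases and the 10 largest decreases at 72 h, with 1 point per library; circles are sham, squares are 72 h, and open circles drawn at 0.02 stand for 0 counts. The 3 libraries of one group lie beyond all 3 of the other for each of the 20 genes, which the rule that chose them required, and the sham values of Cyp26b1 span 55.4, 277 and 18.3 CPM.

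Clock genes made up 5 of the 10 largest decreases. Dbp, a transcription factor driven directly by the circadian clock, fell from 128, 128 and 119 CPM to 7.26, 3.75 and 6.78 CPM (-4.40 ± 0.45, adjusted p = 1.1e-06). Hlf, its relative, fell from 53.1, 51.7 and 51.0 CPM to 3.38, 2.25 and 2.04 CPM (-4.34 ± 0.27), and Per2, a repressor at the core of the clock, from 34.4, 44.3 and 44.4 CPM to 2.37, 1.61 and 2.74 CPM (-4.20 ± 0.28). Per3 (-3.71 ± 0.33) and Ciart (-3.65 ± 0.36) completed the 5. Within each group the 3 mice were close. The groups did not overlap, which the rule that chose these genes required. The hour of death is not given in the labels, and its part in these differences was not tested. The other 5 were Timp4, the cardiac metalloproteinase inhibitor (68.3, 83.2 and 82.3 CPM in sham, 6.94, 4.17 and 5.44 CPM at 72 h, -3.82 ± 0.33), the voltage-gated potassium channel subunit Kcnv2 (-3.54 ± 0.47), the phosphodiesterase Pde4c (-3.52 ± 0.24), the xenobiotic cytochrome Cyp1a1 (-5.30 ± 0.82) and the retinoic acid hydroxylase Cyp26b1 (-4.74 ± 0.88). Cyp1a1 and Cyp26b1 varied most between sham mice, Cyp1a1 from 139 to 468 CPM.

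The 8 largest gains in CPM included 3 collagen chains. Col3a1, the type III collagen of early scars, went from 131, 108 and 166 CPM to 4451, 5803 and 4945 CPM (5.23 ± 0.25, adjusted p = 2.1e-11). Col1a1, of the stiff type I fibril, went from 78.3, 59.9 and 84.9 CPM to 3066, 4349 and 3233 CPM (5.58 ± 0.26, adjusted p = 1.7e-11), and its partner Col1a2 from 105, 103 and 133 CPM to 2485, 3573 and 2854 CPM (4.71 ± 0.24). For the 3 chains, replicate 2 was the highest of the 72 h mice. The groups were far apart, and the rule that chose these genes required that they not overlap. Apoe, the apolipoprotein of macrophages, rose from 527, 511 and 544 CPM to 4674, 3512 and 5885 CPM (3.15 ± 0.16), and here replicate 2 was the lowest at 72 h. The other large gains were the lysosomal protease Ctsb (2.70 ± 0.09), the collagen-binding Sparc (2.53 ± 0.15), lysozyme Lyz2 (4.19 ± 0.18) and the translation elongation factor Eef1a1 (1.88 ± 0.13). The 8 largest losses were all of muscle and its mitochondria: mt-Co1, mt-Cytb, mt-Nd1, mt-Nd4, mt-Nd2, mt-Nd5, the myosin heavy chain Myh6 and myoglobin Mb.

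Scar matrix genes rose across most of their families. Of 28 collagen chains tested, 23 rose, 3 fell and 2 did not pass (median log2 fold change 2.66, against 0.03 for all genes). Besides types I and III, those that rose included Col5a1 (3.78 ± 0.18) and Col5a2 (4.42 ± 0.19), which set fibril diameter, Col12a1 (5.91), the network-forming Col8a2 (5.05) and Col16a1 (3.56 ± 0.17). Col11a1, a minor fibrillar chain typical of cartilage, had too few sham counts for a stable fold, with a count ratio of 742 (95% interval 205 to 6131). Basement membrane chains moved less or the other way: Col4a1 and Col4a2, of the common type IV network, rose by 1.42 and 1.10 on the log2 scale, while Col4a3 (4.25, 2.23 and 4.44 CPM in sham, 2.78, 1.19 and 1.15 CPM at 72 h, -1.10 ± 0.32, adjusted p = 0.0057) and Col4a4 (-0.84) fell. Sham and 72 h values of Col4a3 overlapped, and neither it nor Col4a4 passed under library totals (adjusted p = 0.14 and 0.30).

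The enzymes that hydroxylate, trim and crosslink collagen rose with it, 21 of 25 tested (1 fell, 3 did not pass, median 1.91). P4ha3, a prolyl hydroxylase subunit, went from 0.101, 0.104 and 0.0444 CPM to 26.9, 32.7 and 31.3 CPM (8.44 ± 0.43), while its relatives P4ha1 rose by only 0.88 on the log2 scale and P4ha2 did not pass (-0.21). The sham values of P4ha3 rest on a few reads, too few for a stable fold. The procollagen N-proteinase Adamts2 rose from 25.4, 22.1 and 26.7 CPM to 198, 227 and 206 CPM (3.09 ± 0.10, adjusted p = 2.2e-13) and its relative Adamts3 fell (-0.86 ± 0.21), though not under library totals (adjusted p = 0.24). All 5 lysyl oxidases, which crosslink collagen and elastin, rose: Lox (5.85), Loxl3 (4.06 ± 0.20), Loxl2 (3.17), Loxl1 (2.77) and Loxl4 (2.77).

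Matricellular proteins, which modify cell contacts with the matrix, rose for 20 of 24 tested (3 fell, median 2.88). Postn, or periostin, went from 19.9, 17.5 and 25.9 CPM to 1577, 1603 and 1516 CPM (6.21 ± 0.27, adjusted p = 1.5e-11), and Ccn4 from 2.17, 1.30 and 1.69 CPM to 28.4, 38.7 and 33.7 CPM (4.28 ± 0.24). Tenascin C (Tnc, 8.80), thrombospondin 1 (Thbs1, 5.26) and fibronectin (Fn1, 4.86) rose too. The 3 that fell were Tnxb, from 162, 152 and 171 CPM to 85.8, 47.6 and 46.7 CPM (-1.43 ± 0.19), Sparcl1 (-0.58) and Smoc2 (-0.44). Under library totals neither Sparcl1 (adjusted p = 0.998) nor Smoc2 (0.14, adjusted p = 0.30) passed. Elastic fibre genes rose for 11 of 15 (2 fell, median 2.71), among them Emilin1 (2.71 ± 0.13), Efemp2 (2.82 ± 0.15) and elastin itself (Eln, 49.0, 58.2 and 55.1 CPM in sham and 223, 225 and 265 CPM at 72 h, 2.14 ± 0.13). Ltbp4, which directs elastin assembly, fell (-0.76 ± 0.15), but not under library totals (adjusted p = 0.30). Small leucine-rich proteoglycans were split, with 5 of 10 higher and 2 lower (median 0.40). Bgn (2.80 ± 0.14), Aspn (2.55 ± 0.26) and Lum (2.18 ± 0.19) rose at least 4-fold, while decorin (Dcn), the highest of them by FPKM in sham (65.4 fragments per kilobase and M counts), rose only from 400.1, 426 and 409.6 CPM to 583, 450.3 and 507 CPM (0.32 ± 0.13, adjusted p = 0.036). Dcn lost its call when any of the 3 sham libraries or 72 h replicate 1 or 3 was left out (adjusted p from 0.062 to 0.17).

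Among 24 matrix proteinases and inhibitors, 18 rose and 3 fell (median 2.36), and the inhibitors parted ways. Timp1 went from 1.97, 1.40 and 1.69 CPM to 175, 251 and 155 CPM (6.84 ± 0.35, adjusted p = 3.2e-10) and Timp2 rose (1.37), while Timp3 (-1.87) and Timp4 fell. Proteinases that rose included Adam12 (0.303, 0.259 and 0.400 CPM in sham, 37.6, 60.2 and 45.2 CPM at 72 h, 7.18 ± 0.33), Adamts12 (3.50 ± 0.24), the collagenase activator Mmp14 (4.66) and the macrophage elastase Mmp12 (6.85). Mmp2 and Mmp9, the gelatinases, rose by 0.95 and 4.48 on the log2 scale.

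**Figure D2:**
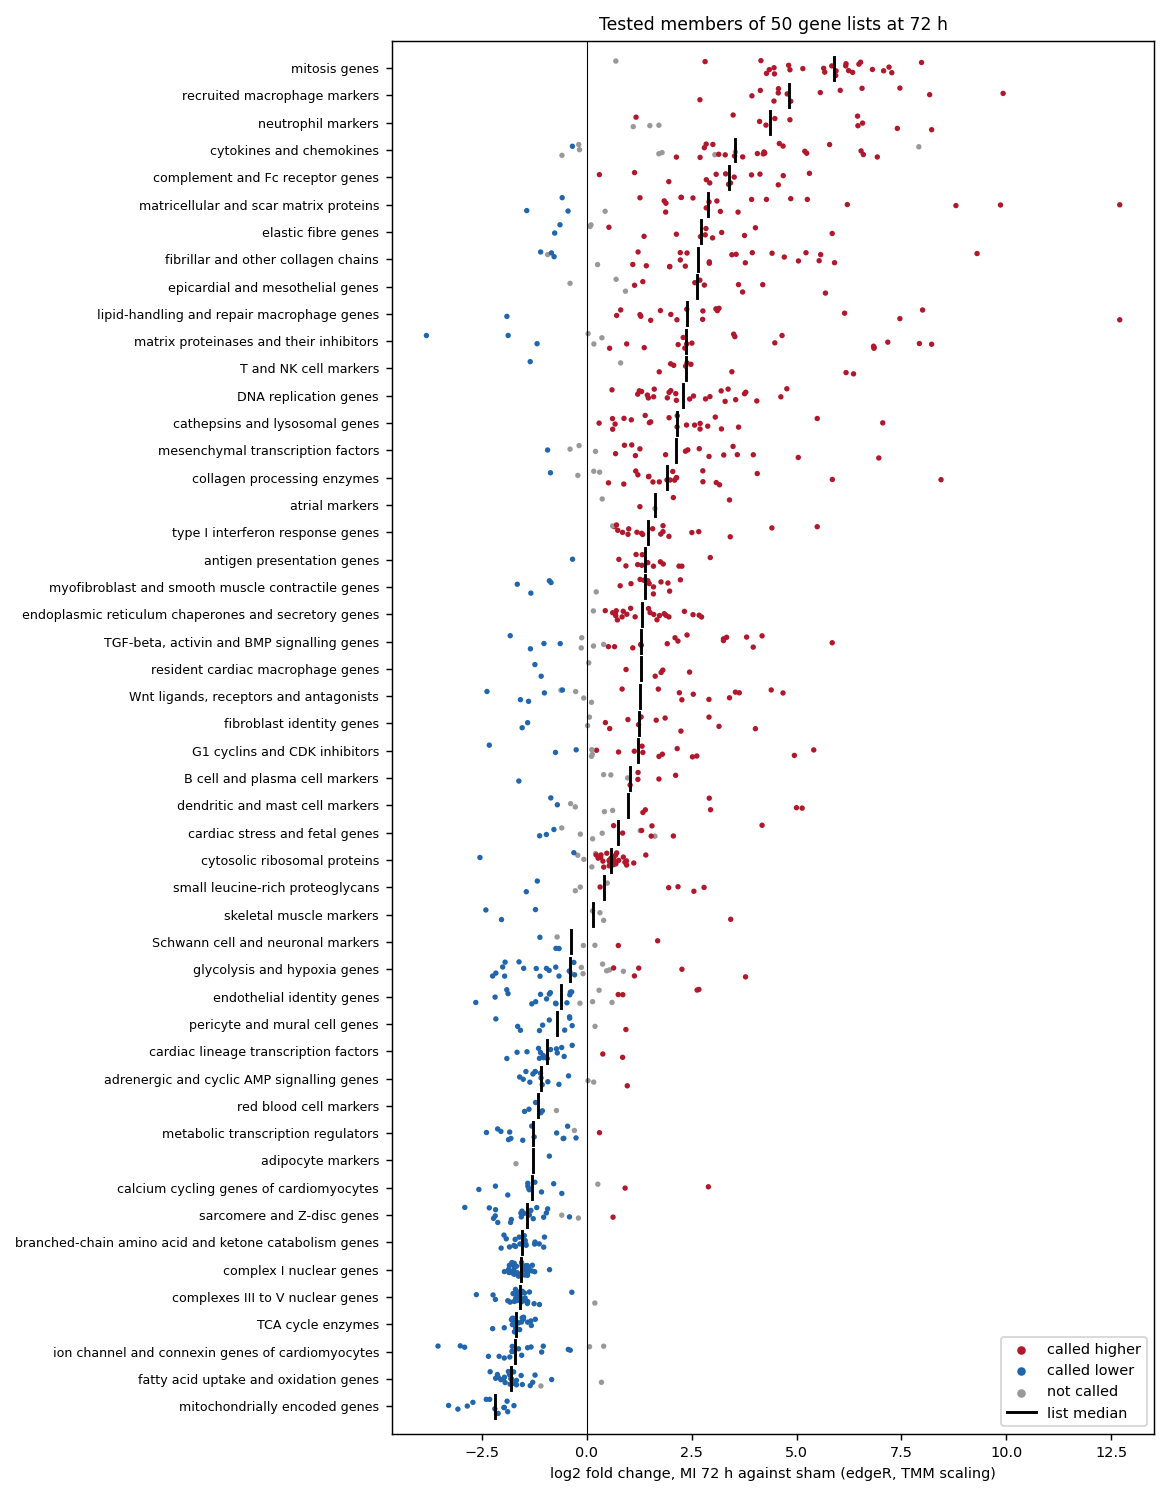
Log2 fold change at 72 h against sham (x axis, edgeR with TMM scaling) of every tested member of 50 gene lists (rows, ordered by median); red points were called higher, blue lower, grey not called, and black bars are list medians. Medians run from -2.19 for the mitochondrially encoded genes to 5.89 for the mitosis genes.

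Of 15 fibroblast identity genes tested, 11 rose and 2 fell (median 1.24, against 2.66 for the collagens). Pdgfra, the receptor that defines cardiac fibroblasts, went from 41.9, 40.4 and 38.1 CPM to 73.6, 86.6 and 77.6 CPM (0.98 ± 0.14), and the lineage factor Tcf21 from 14.003, 10.5 and 13.2 CPM to 28.5, 30.2 and 34.0 CPM (1.30 ± 0.13). Thy1 (2.25 ± 0.14), Pdgfrl (3.15 ± 0.26) and the activation factor Meox1 (2.91 ± 0.21) rose more. Gsn, the actin-severing gelsolin that is abundant in resting fibroblasts, fell from 1543, 1331 and 1522 CPM to 697, 370.2 and 446 CPM (-1.54 ± 0.19), and so did Scara5 (-1.41). Of 20 mesenchymal transcription factors, 16 rose and 1 fell (median 2.12). They included Sox9 (1.82, 1.30 and 1.82 CPM in sham, 18.5, 21.7 and 19.6 CPM at 72 h, 3.59 ± 0.18), Twist1 (2.41 ± 0.16), Runx1 (3.97) and Prrx2, which had 2 sham counts and a count ratio of 146 (95% interval 40.2 to 1209). Its relative Prrx1 did not pass (0.21), and Meox2 fell (-0.93 ± 0.17), but not under library totals (adjusted p = 0.11).

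Contractile genes of myofibroblasts and smooth muscle were mixed, with 13 of 18 higher and 4 lower (median 1.38). The myofibroblast marker Acta2 (1.40), Tagln (1.59), Tagln2 (1.98 ± 0.14) and Cnn2 (1.77 ± 0.13) rose. Myh11, the myosin of mature smooth muscle, fell from 95.5, 100.2 and 109 CPM to 21.6, 52.8 and 22.3 CPM (-1.65 ± 0.27), with replicate 2 above the other two at 72 h. The list summed to 9577 to 10285 CPM in sham and 6095 to 6698 CPM at 72 h. Its share of all counts was 0.915% and 0.899%, and without the mitochondrially encoded genes in the total 1.22% and 0.996%. Tpm1, which cardiomyocytes also express, is in the list and fell from 8985, 8562 and 8183 CPM to 3824, 3179 and 3224 CPM (-1.33 ± 0.12).

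TGF-beta, activin and BMP signalling genes rose for 16 of 24 (4 fell, median 1.29). The ligands Tgfb1 (1.29), Tgfb2 (1.30) and Tgfb3 (2.105) and the receptors Tgfbr1 (16.8, 17.3 and 16.9 CPM in sham, 58.2, 67.9 and 67.1 CPM at 72 h, 1.92 ± 0.15) and Tgfbr2 (1.10) rose, as did the latent TGF-beta binding protein Ltbp2 (2.83, 2.07 and 3.95 CPM, then 163, 209 and 145 CPM, 5.85 ± 0.30). Activin subunit Inhba (3.81) rose together with the activin traps Fst (3.26) and Fstl3 (2.39). Bmp6 fell from 102, 136 and 118 CPM to 36.6, 29.9 and 34.0 CPM (-1.82 ± 0.18), Bmp4 fell (-0.63, not under library totals, adjusted p = 0.81) and Bmp2 rose (2.17). In the Wnt list 11 of 20 rose and 5 fell (median 1.27). Secreted antagonists moved in both directions: Sfrp1 (3.54 ± 0.17), Sfrp2 (4.68), Dkk2 (3.64) and Frzb (2.91 ± 0.22) rose, and Sfrp5 (-2.38 ± 0.50) and Wif1 (-1.58) fell. Axin2, a gene that beta-catenin switches on, fell (-1.39).

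Macrophage genes rose as a body. All 14 recruited macrophage markers rose (median 4.82). Cd68 went from 6.72, 4.62 and 6.84 CPM to 166, 158 and 176 CPM (4.78 ± 0.20, adjusted p = 5.4e-12), Adgre1, the F4/80 antigen, from 7.48, 10.5 and 11.6 CPM to 145, 149 and 161 CPM (3.94 ± 0.17), and Ms4a7 from 1.26, 1.09 and 1.78 CPM to 90.1, 75.7 and 110.1 CPM (6.04 ± 0.28). The monocyte genes Ccr2 (5.57) and Ly6c2 (4.14) rose as well. Of 19 genes of lipid-handling and repair macrophages 18 rose (median 2.38): Gpnmb went from 1.11, 1.35 and 1.64 CPM to 322, 329.7 and 413 CPM (8.004 ± 0.23, adjusted p = 1.3e-13), and Trem2 (6.15), the lysosomal lipase Lipa (2.38 ± 0.10), the legumain Lgmn (3.08 ± 0.10) and the growth factor Igf1 (3.11) followed. The exception was lipoprotein lipase (Lpl), which cardiomyocytes express strongly, from 5416, 5186 and 4854 CPM to 1517, 1295 and 1323 CPM (-1.90 ± 0.17). Resident macrophage markers parted, with 5 of 8 higher and 2 lower (median 1.28). Mrc1 (2.45 ± 0.16) and F13a1 (1.81 ± 0.28) rose, Timd4 (-1.23 ± 0.38, adjusted p = 0.0081) and Lyve1 (-1.09) fell, and Cd163 did not pass (0.05). Folr2 also rose (1.77 ± 0.22), but 63.1% of its exon length is shared with a predicted gene. Under library totals neither Timd4 nor Lyve1 passed (adjusted p = 0.13 and 0.11).

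All 22 cathepsin and lysosomal genes rose (median 2.16), with Ctsb from 467, 438 and 457 CPM to 2788, 2842 and 3237 CPM, Ctsk (3.21 ± 0.13), Grn (2.57 ± 0.10) and Ctss (5.49). All 15 complement and Fc receptor genes rose too (median 3.38), led by significance by C1qb (44.2, 52.6 and 55.7 CPM in sham, 573, 435 and 582 CPM at 72 h, 3.38 ± 0.15), C3ar1 (4.68 ± 0.20) and C1qc (2.93 ± 0.14). Of 14 antigen presentation genes, 13 rose (median 1.39), among them class II H2-Aa (1.76 ± 0.15) and Cd74 (1.46 ± 0.13). Tap2 was lower by 0.34 on the log2 scale under TMM and at 0.25 under library totals (adjusted p = 0.074).

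Neutrophil markers were present at low level. Of 14 tested, 11 rose and none fell (median 4.38), but S100a8 reached only 8.52, 11.2 and 10.3 CPM from 0.455, 0.778 and 0.489 CPM (4.12 ± 1.39, adjusted p = 0.019) and Csf3r 22.8, 22.5 and 29.2 CPM (4.84 ± 0.87). Without sham replicate 1 or 3, S100a8 did not pass (adjusted p = 0.055 and 0.057). Ly6g, Retnlg and Ngp, also neutrophil genes, did not pass. The summed share of the list was 0.0524% of counts at 6 h, 0.0581% ± 0.0601 (SD, n = 3) at 24 h and 0.0177% at 72 h. At 24 h the SD (0.0601) exceeded the mean (0.0581). Clec4d (7.40 ± 1.14) and Mmp8 are in this list, and macrophages express Clec4d too.

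Lymphoid markers rose from near 0 and stayed low. Of 11 T and NK cell genes tested 9 rose (median 2.36, or 2.07 with the gene absent from sham at its bound), with Il7r at 8.30, 11.7 and 9.51 CPM (6.18 ± 0.40) and Lck at 1.48, 1.19 and 1.78 CPM (2.48 ± 0.38). Ctla4 fell (-1.35 ± 0.36, adjusted p = 0.0028), but not under library totals (adjusted p = 0.065). Of 9 B cell genes 5 rose and 1 fell (median 1.03), with Ighm from 4.65, 4.10 and 4.75 CPM to 17.9, 10.4 and 16.3 CPM (1.72 ± 0.27). Of 12 dendritic and mast cell genes 6 rose and 2 fell (median 0.98): Irf8 (2.92 ± 0.21), Cd209a (5.13 ± 0.48) and Flt3 (5.00 ± 0.50) rose, Zbtb46 fell (-0.86 ± 0.12, not under library totals, adjusted p = 0.080), and the mast cell proteases Mcpt4, Cpa3 and Tpsb2 did not pass.

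Cytokines and chemokines rose for 21 of 30 (1 fell, median 3.53, or 3.25 with the 2 genes absent from sham at their bound). The monocyte chemokines Ccl8 (0.0506, 0.156 and 0.178 CPM in sham, 19.2, 12.7 and 17.4 CPM at 72 h, 6.93 ± 0.41), Ccl2 (4.68) and Ccl7 (4.24), the membrane chemokine Cxcl16 (3.01 ± 0.13) and Il18 (4.07 ± 0.35) were among them. Ccl8 had only a few sham reads, too few for a stable fold. Tnf, Il1a, Cxcl1 and Cxcl2 did not pass. Cxcl12, made by stroma, went from 293, 273 and 252 CPM to 194, 248 and 204 CPM (-0.34 ± 0.13) and changed sign under library totals. It lost its call without sham replicate 1 or 72 h replicate 1 or 3 (adjusted p from 0.083 to 0.10). Type I interferon response genes rose for 19 of 20 (median 1.45), with Bst2 (1.82 ± 0.11), Mx1 (4.41 ± 0.34) and Ifi204 (3.42 ± 0.32) the most significant.

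Genes of cell division rose together, and the mitosis list had the highest median of the 50 lists. All 26 DNA replication genes rose (median 2.29) and 25 of 26 mitosis genes (median 5.89; Cenpf did not pass). Tpx2, a spindle assembly factor, went from 0.506, 0.519 and 0.533 CPM to 34.6, 45.8 and 38.8 CPM (6.24 ± 0.31, adjusted p = 1.5e-11), Cdc20, an activator of the anaphase-promoting complex, from 1.06, 1.19 and 1.73 CPM to 23.7, 29.8 and 25.04 CPM (4.28 ± 0.21), and the checkpoint kinase Bub1b from 0.607, 1.04 and 0.844 CPM to 20.1, 28.0 and 22.2 CPM (4.81 ± 0.27). In all 3, replicate 2 was the highest at 72 h. Of the replication genes, the helicase subunit Mcm6 went from 8.49, 8.71 and 8.71 CPM to 45.5, 59.1 and 46.6 CPM (2.54 ± 0.17), Tyms, of thymidylate synthesis, from 1.16, 1.19 and 1.55 CPM to 16.1, 19.3 and 19.2 CPM (3.79 ± 0.27), and the clamp Pcna from 45.8, 40.0 and 38.6 CPM to 104, 128 and 107 CPM (1.45 ± 0.10). Sham hearts already held over 38 CPM of Pcna, while Tpx2 was under 0.6 CPM. Mitosis genes took 0.00260% of counts in sham and 0.0927% at 72 h, a 35.7-fold difference, against 6.70-fold for the replication genes. G1 regulators were mixed, with 12 of 18 higher and 3 lower (median 1.23). Cdk4 (1.13 ± 0.09), Cdkn3 (5.41 ± 0.46) and the inhibitor Cdkn1a (2.16) rose, Ccnd2 fell (-0.74, not under library totals, adjusted p = 0.20), and the inhibitor Cdkn1c fell from 38.1, 39.6 and 33.0 CPM to 7.98, 5.30 and 8.85 CPM (-2.32 ± 0.27), with 30.7% of its exon length shared with a predicted gene.

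Mitosis genes are known to share promoter elements, a CCAAT box bound by NF-Y and a cell cycle homology region (CHR) with the core TTTGAA, through which the DREAM complex holds them silent in resting cells. Their promoters were therefore read from RefSeq (GRCm38.p6, 250 bases before to 50 after each start), on both strands. TTTGAA was in the window of 16 of the 22 mitosis genes that matched the table (72.7%), of 3 of 21 replication genes (14.3%) and of 20.2% of 27025 genes. CCAAT was in 19 of 22 (86.4%), 13 of 21 (61.9%) and 41.1%. Both were in 16 of 22 (72.7%), 2 of 21 (9.52%) and 7.97%. These are counts of letters, with no test and no measure of binding. The 150 bases before the start are printed for the 4 mitosis genes with the largest increases among 6 that hold both motifs there. Genes with more than 1 listed promoter, and those on 1 chromosome that was left out, did not enter this choice. Also printed is 1 replication gene that holds CCAAT alone, to show how the motifs are placed. Capitals mark CCAAT, or ATTGG where it is on the other strand, and TTTGAA, or TTCAAA where it is on the other strand. Each is written 5′ to 3′ along the gene's own strand.
Top2a (chr11:99024190-99024339, minus strand): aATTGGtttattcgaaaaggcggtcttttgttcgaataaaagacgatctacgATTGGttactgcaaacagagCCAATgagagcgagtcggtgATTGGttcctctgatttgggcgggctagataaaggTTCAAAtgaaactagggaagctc
Mki67 (chr7:135716380-135716529, minus strand): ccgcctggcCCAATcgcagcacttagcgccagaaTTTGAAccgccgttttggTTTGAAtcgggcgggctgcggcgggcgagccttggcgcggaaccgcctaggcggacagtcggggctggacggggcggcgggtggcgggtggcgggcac
Kif11 (chr19:37376232-37376381, plus strand): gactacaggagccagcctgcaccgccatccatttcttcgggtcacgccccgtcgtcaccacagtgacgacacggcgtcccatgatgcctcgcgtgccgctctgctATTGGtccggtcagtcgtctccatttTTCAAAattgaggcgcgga
Cdk1 (chr10:69352913-69353062, minus strand): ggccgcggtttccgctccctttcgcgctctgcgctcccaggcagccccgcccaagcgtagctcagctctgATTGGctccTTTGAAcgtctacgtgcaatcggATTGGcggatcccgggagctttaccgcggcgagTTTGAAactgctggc
Mcm10 (chr2:5012792-5012941, minus strand): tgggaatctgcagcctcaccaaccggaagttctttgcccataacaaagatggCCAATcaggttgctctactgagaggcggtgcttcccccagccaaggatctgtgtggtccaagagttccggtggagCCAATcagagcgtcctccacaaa
In each of the 4 mitosis promoters the last TTTGAA lies nearer to the start than every CCAAT: its first base is at -23 in Top2a, -98 in Mki67, -19 in Kif11 and -15 in Cdk1, counted back from the start. Top2a, the topoisomerase that untangles sister DNA, went from 0.607, 0.674 and 1.20 CPM to 60.9, 99.1 and 73.9 CPM (6.53 ± 0.50), and Mki67, the Ki-67 proliferation marker, from 1.67, 0.519 and 1.33 CPM to 69.7, 101 and 87.7 CPM (6.18 ± 0.43). Kif11, the spindle motor, went from 0.404, 0.311 and 0.444 CPM to 21.0, 29.5 and 22.3 CPM (5.94 ± 0.38), and Cdk1, the kinase that starts mitosis, from 0.758, 0.311 and 0.400 CPM to 25.6, 31.1 and 28.2 CPM (5.84 ± 0.45). Mcm10, which loads the replication fork, went from 0.303, 0.311 and 0.178 CPM to 5.77, 8.16 and 7.86 CPM (4.77 ± 0.47).

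Genes of the protein-making machinery rose by smaller steps. Of 36 cytosolic ribosomal proteins 30 rose and 2 fell (median 0.58), and their share of counts went from 1.09% to 2.34%. Rpl10 (1.12 ± 0.09) was 1 of 2 past 2-fold, with Rpl3. The muscle-specific Rpl3l fell from 276, 286 and 274 CPM to 66.4, 40.4 and 36.5 CPM (-2.54 ± 0.21) while the general form Rpl3 rose from 217, 206 and 221 CPM to 537, 582 and 589 CPM (1.41 ± 0.10). Of 24 genes of the endoplasmic reticulum and secretory route 23 rose (median 1.31), among them the disulfide isomerase Pdia6 (107, 95.3 and 95.9 CPM in sham, 327, 397 and 347 CPM at 72 h, 1.85 ± 0.10), the cargo receptor Tmed3 (1.96 ± 0.09) and the retrieval receptor Kdelr3 (2.53 ± 0.15). Canx did not pass (0.16).

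**Figure D3:**
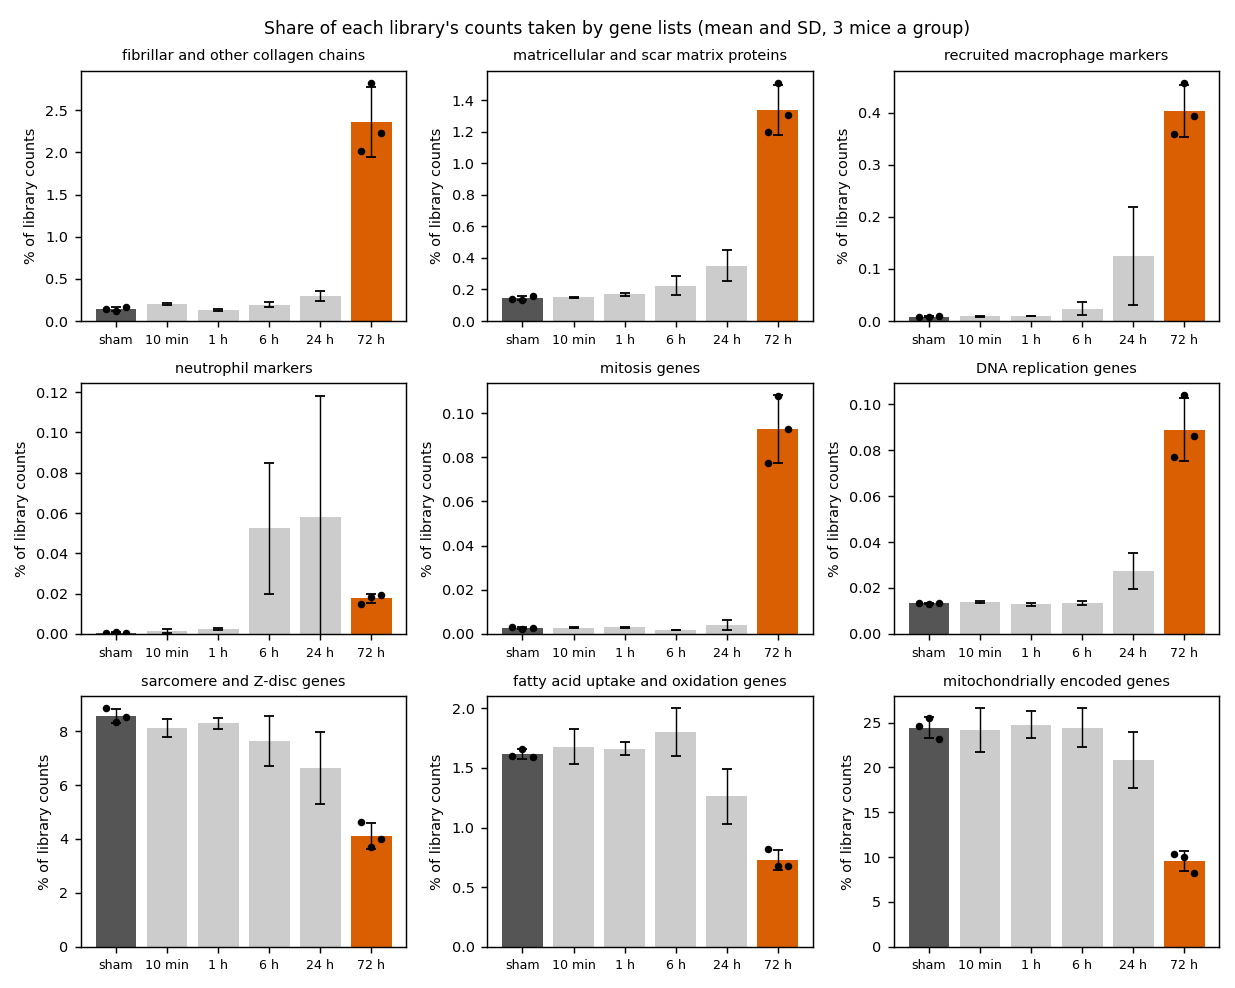
Percent of each library's counts taken by 9 gene lists in the 6 groups of the series (bars are means, error bars SD, n = 3 mice; black points are single libraries of sham and 72 h; a downward error bar that would pass 0 is clipped). Collagens took 0.143% in sham and 2.36% at 72 h, and sarcomere genes 8.57% and 4.10%.

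The share of counts a list took needs no scaling factor, but it depends on the total. Mitochondrially encoded genes (the 13 of the list) fell from 24.4% to 9.54% of counts, which raises the share of every other list. With all mitochondrial genes left out of the total, 22 of 49 differences in share moved by more than the spread between mice. Ribosomal proteins then went from 1.46% to 2.59%, in place of 1.09% to 2.34%. The shares that follow are of all counts. Collagens held 0.148%, 0.118% and 0.163% of counts in the sham libraries and 2.02%, 2.83% and 2.24% at 72 h. At 24 h their mean was 0.300%, and at 6 h 0.190%. Recruited macrophage markers held 0.00733% to 0.00925% in sham and 0.359% to 0.458% at 72 h, and 0.124% ± 0.0938 (SD, n = 3) at 24 h. Mitosis genes were at 0.00391% at 24 h. Sarcomere genes held 8.34% to 8.85% in sham and 3.71% to 4.63% at 72 h, with 6.64% ± 1.34 (SD, n = 3) at 24 h. The shares of the 72 h and sham libraries overlapped for 3 of the 50 lists, those of myofibroblasts (exact two-sided permutation p = 0.5), adrenergic signalling (exact p = 0.3) and mural cells (exact p = 0.7). For every other list the groups did not overlap, and the exact p was 0.1, the smallest that 3 against 3 mice allow (0.106 adjusted over the 50 lists). Without the mitochondrial genes in the total the same 3 lists parted, each lower at 72 h (1.22% and 0.996%, 0.191% and 0.156%, 0.389% and 0.320%), and 1 of 49 overlapped, that of fibroblast identity genes (exact p = 0.6). Among the 72 h mice, replicate 2 held the most collagen and mitosis counts and the least sarcomere counts, and replicate 1 the reverse.

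Muscle genes fell, and not evenly. Of 24 sarcomere and Z-disc genes 21 fell and 1 rose (median -1.43). Tcap, the titin cap, fell most, from 2321, 2509 and 2215 CPM to 406, 239 and 296 CPM (-2.91 ± 0.22, adjusted p = 4.3e-09). The ventricular light chain Myl2 fell from 8732, 8282 and 7825 CPM to 2044, 1417 and 1505 CPM (-2.32 ± 0.17) and the cardiac troponin I Tnni3 from 4638, 4347 and 4069 CPM to 1221, 843 and 832 CPM (-2.17 ± 0.17). Cardiac actin Actc1, from 10436, 8967 and 10189.8 CPM to 4882, 3889 and 4192 CPM, fell less (-1.19 ± 0.21). Xirp2, an adaptor of the intercalated disc, was the one that rose, from 292, 311 and 316 CPM to 450.4, 562 and 408 CPM (0.63 ± 0.22, adjusted p = 0.018), but not without sham replicate 1 or 72 h replicate 2 (adjusted p = 0.058 and 0.090). Under library totals 19 of the 24 fell and 2 rose.

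Calcium cycling genes fell for 11 of 14 (2 rose, median -1.30). Hrc, which binds calcium in the sarcoplasmic reticulum, went from 1089, 1018 and 964 CPM to 229, 142 and 147 CPM (-2.57 ± 0.19), the pump Atp2a2 fell by 1.88 on the log2 scale and the release channel Ryr2 (-1.23 ± 0.17) fell less. Pln, the pump's inhibitor, also fell (-2.18 ± 0.19), with 59.6% of its exon length shared with a predicted gene. Fkbp1b, a small regulator of Ryr2, rose from 0.404, 0.726 and 0.400 CPM to 3.72, 3.90 and 3.82 CPM (2.90 ± 0.35). Of 20 ion channel and connexin genes 18 fell and none rose (median -1.70). These set the action potential: Kcnj5 fell from 97.7, 94.3 and 93.4 CPM to 24.3, 24.6 and 24.2 CPM (-1.96 ± 0.13), Scn4b from 38.6, 38.4 and 37.3 CPM to 5.77, 4.41 and 3.95 CPM (-3.01 ± 0.23), Kcnip2 (-2.91) and Kcnj11 (-2.09 ± 0.18) by similar steps, and connexin 43, Gja1 (-0.44), by less. Under library totals Gja1 was at 0.15 and did not pass (adjusted p = 0.31).

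Adrenergic and cyclic AMP genes fell for 13 of 16 (1 rose, median -1.09), among them Adrb1, the main cardiac beta receptor (-1.28), the cyclase Adcy6 (227, 235 and 227 CPM in sham, 84.7, 78.7 and 77.7 CPM at 72 h, -1.51 ± 0.12) and the kinase subunit Prkaca (-1.36 ± 0.13). Grk5, a kinase that silences receptors, rose from 20.8, 21.0 and 23.8 CPM to 40.7, 48.0 and 39.5 CPM (0.97 ± 0.16). Cardiac lineage transcription factors fell by smaller steps, 15 of 17 (median -0.94), and 8 of 17 under library totals: Tbx5 (25.2, 24.2 and 22.7 CPM, then 7.41, 5.97 and 5.89 CPM, -1.90 ± 0.17), Smyd1 (-1.42 ± 0.15), Mef2d (-0.94 ± 0.09) and Nkx2-5 (-1.04). The list summed to 2408 to 2610.3 CPM in sham and 2237 to 2425 CPM at 72 h. Its share of all counts went from 0.233% to 0.325%, and without the mitochondrial genes in the total from 0.312% to 0.359%. Ankrd1, a stress-induced cofactor in this list, rose from 796, 822 and 649 CPM to 1211, 1476 and 1414 CPM (0.86 ± 0.23, adjusted p = 0.003). Of 16 stress and fetal genes 7 rose and 3 fell (median 0.75). Gdf15, a stress cytokine, went from 1.11, 0.778 and 1.07 CPM to 17.98, 19.2 and 16.9 CPM (4.18 ± 0.51), and Nppa, the atrial natriuretic peptide, from 206, 89.4 and 140.2 CPM to 569, 608 and 646 CPM (2.06 ± 0.37), with 61.5% of its exon length shared with a predicted gene. Uchl1 rose too (1.54 ± 0.14), and Hspb7, a small heat shock protein of muscle, fell (-1.12 ± 0.13).

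RNA of oxidative metabolism genes fell nearly gene for gene. All 22 TCA cycle enzymes, all 36 nuclear complex I subunits, 32 of 33 subunits of complexes III to V, 25 of 27 fatty acid genes and all 18 genes of branched-chain amino acid and ketone catabolism fell, and none of these genes rose. Under library totals 1 fatty acid gene and 1 gene of complexes III to V rose. The medians lay close together: -1.68, -1.56, -1.60, -1.80 and -1.54. Complex I subunits spanned -1.96 to -0.89. Acaa2, the last enzyme of the beta-oxidation spiral, fell from 993, 1059 and 933 CPM to 283, 202 and 198 CPM (-2.13 ± 0.16, adjusted p = 1.8e-09), and Acadm, of medium-chain oxidation, from 1209, 1324 and 1142 CPM to 349, 272 and 267 CPM (-2.05 ± 0.15). Idh3b (-1.80 ± 0.12), Fh1 (-1.69 ± 0.12), Ndufa10 (-1.96 ± 0.13) and Uqcrfs1 (-1.68 ± 0.13) stand for the cycle and the chain. Bckdha, of branched-chain oxidation, fell by a like amount (-2.04 ± 0.16), with 61.7% of its exon length shared with another gene. For each of these, replicate 1 was the highest of the 72 h mice. Cpt1a, the liver form of the carnitine transferase, did not pass (0.35), nor did Pdk4 (-1.09) or the general subunit Cox6a1 (0.19).

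All 13 mitochondrially encoded genes fell (median -2.19, against -1.56 and -1.60 for the nuclear subunits above). mt-Co1, a core subunit of complex IV, went from 109881, 115946 and 100435 CPM to 32681, 31027 and 24751 CPM (-1.88 ± 0.19, adjusted p = 1.1e-07), mt-Cytb from 45417, 47358 and 40548 CPM to 13017, 11827 and 9323 CPM (-1.96 ± 0.17) and mt-Atp6 from 2255, 2610.4 and 2502 CPM to 318, 407 and 299 CPM (-2.85 ± 0.23). Replicate 3 was the lowest of the 72 h mice in each of these. Nuclear copies of mitochondrial sequence can share reads with these genes, and how the counting treated such reads is not given in the sources used here. Of 16 metabolic regulators 14 fell and 1 rose (median -1.28). The estrogen-related receptors Esrra (262, 266 and 274 CPM in sham, 129, 101 and 107 CPM at 72 h, -1.25 ± 0.13) and Esrrb (-1.86 ± 0.21), their muscle cofactor Perm1 (-2.05 ± 0.21) and the coactivator Ppargc1a (-1.84) fell. Nrf1, which drives respiratory genes, rose slightly (0.30 ± 0.10, adjusted p = 0.013). The extended binding motif of estrogen-related receptors, TNAAGGTCA, was in the promoter window of 0 of 24 fatty acid genes. It was in 1 of 19 TCA genes (5.26%), 1 of 32 complex I genes (3.1%) and 1 of 24 genes of complexes III to V (4.17%). The share over all genes was 1.43%. Each of the 3 list shares above 0 rests on 1 gene. The presence or absence of these letters says nothing about the receptors.

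Glucose genes did not move as 1 group. Of 28 glycolysis and hypoxia genes 5 rose and 16 fell (median -0.40 under TMM, 0.19 under library totals). Hk2, the insulin-sensitive hexokinase, fell from 358, 336 and 322 CPM to 124, 129 and 105 CPM (-1.50 ± 0.11) and the lactate importer Slc16a1 from 239.6, 246 and 254 CPM to 84.3, 80.5 and 76.8 CPM (-1.61 ± 0.12). The lactate exporter Slc16a3 rose from 4.25, 3.94 and 5.29 CPM to 60.4, 71.8 and 54.4 CPM (3.79 ± 0.61, adjusted p = 1.0e-04). Vegfa, the hypoxia-driven vessel growth factor, fell (-1.11).

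**Figure D4:**
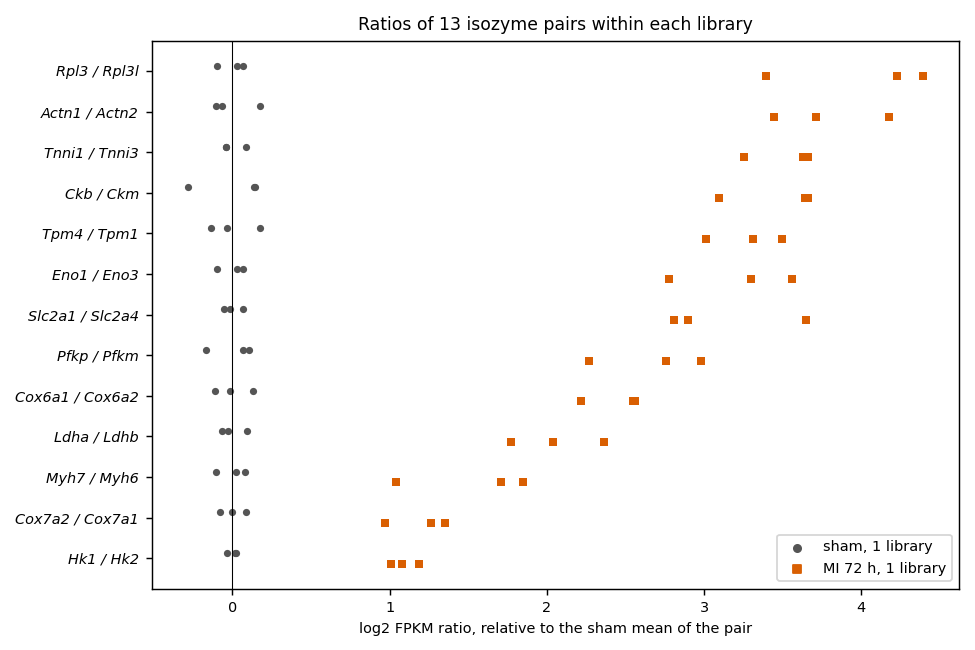
Ratio of the first to the second gene of 13 isozyme pairs within each library (FPKM, log2, relative to the sham mean of the pair), with 1 point per library; circles are sham and squares 72 h. The 3 libraries at 72 h lie above the 3 sham libraries in all 13 pairs, by 1.09 for Hk1/Hk2 to 4.004 for Rpl3/Rpl3l on average.

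Many proteins come as a heart or muscle form and a form used by other cells, and the ratio of such a pair within a library is free of the scaling factor. In all 13 pairs the form with the lower FPKM in sham gained on the other. Rpl3 stood at 0.413, 0.379 and 0.425 times the FPKM of Rpl3l in sham and at 4.26, 7.59 and 8.49 times at 72 h. Creatine kinase B stood at 0.0502, 0.0375 and 0.0501 times the muscle form (Ckb over Ckm) and at 0.389, 0.575 and 0.569 times at 72 h. Lactate dehydrogenase A to B went from 0.230, 0.236 and 0.257 to 0.823, 1.24 and 0.989, so the A form came close to parity, while Ldhb fell (-2.17 ± 0.17). Ldha itself did not pass under TMM (-0.13 ± 0.10) and was higher under library totals (0.46, adjusted p = 0.00030). Enolase (Eno1 over Eno3) shifted by 3.21 on the log2 scale, alpha-actinin (Actn1 over Actn2) by 3.78, tropomyosin (Tpm4 over Tpm1) by 3.27, phosphofructokinase (Pfkp over Pfkm) by 2.67 and the glucose transporters (Slc2a1 over Slc2a4) by 3.12. Cox6a1 over Cox6a2 shifted by 2.44 and Cox7a2 over Cox7a1 by 1.19. For the fetal myosin Myh7, the ratio to Myh6 rose from 0.00794, 0.00765 and 0.00701 to 0.0155, 0.0270 and 0.0246, but Myh7 itself did not rise (265, 239.5 and 215 CPM in sham, 135, 172 and 169.9 CPM at 72 h, -0.60 ± 0.39, adjusted p = 0.19). The groups did not overlap for Myh7, which held for 75.8% of all genes tested. In the fit to the 6 libraries compared Myh7 was called lower (-0.59, adjusted p = 0.00027). The exact two-sided permutation p was 0.1 for each pair, the smallest possible with 3 against 3 mice, and 0.1 after adjustment over the 13 pairs. Replicate 1 had the smallest shift of the 72 h mice in every pair but Hk1 over Hk2. These ratios cannot tell a change within cardiomyocytes from a change in the mix of cells, and that was not tested.

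Vessel genes fell by less and depended on the scaling. Of 24 endothelial genes 16 fell and 4 rose under TMM (median -0.60), and 10 fell and 8 rose under library totals (median -0.02). Aqp1, the water channel of capillaries, fell from 766, 939 and 864 CPM to 169, 119 and 123 CPM (-2.64 ± 0.24), Cd300lg from 148, 158 and 156 CPM to 38.7, 33.4 and 29.7 CPM (-2.18 ± 0.13) and Flt1, the decoy VEGF receptor, from 262, 309 and 269 CPM to 79.0, 88.6 and 61.3 CPM (-1.88 ± 0.15). The pan-endothelial Pecam1 did not pass (230.3, 223 and 236 CPM in sham, 189, 239 and 187 CPM at 72 h, -0.16 ± 0.12, adjusted p = 0.25) and Cdh5 fell slightly (-0.47 ± 0.15), though not without 72 h replicate 3 (adjusted p = 0.063). Under library totals Pecam1 was higher (0.42, adjusted p = 0.0031) and Cdh5 was at 0.11 (adjusted p = 0.50). Plvap, of the diaphragms of leaky vessels, rose from 15.2, 9.18 and 12.0 CPM to 70.5, 81.4 and 80.7 CPM (2.67 ± 0.24, adjusted p = 6.3e-08), and so did Ackr1, of venules (2.63). Of 12 pericyte and mural genes 10 fell and 1 rose (median -0.71; 5 and 2 under library totals). The channel subunits Kcnj8 (-1.65 ± 0.12) and Abcc9 (-2.17 ± 0.18), which cardiomyocytes share, fell, Pdgfrb did not pass (0.20; it rose without 72 h replicate 1, by 0.31, adjusted p = 0.022), and Mcam rose (0.93 ± 0.22).

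Epicardial and mesothelial genes rose for 9 of 12, none fell, and the groups parted for the retinoic acid enzyme Aldh1a2 (3.13, 3.99 and 4.89 CPM in sham, 56.6, 52.0 and 39.7 CPM at 72 h, 3.62 ± 0.28) and the keratin Krt18 (0.152, 0.363 and 0.311 CPM, then 5.80, 5.57 and 4.07 CPM, 4.20 ± 0.42). The groups parted for 75.8% of all genes tested. Of the defining mesothelial genes, Upk3b (0.70) and Wt1 (-0.40) did not pass. Msln rose (1.34, adjusted p = 0.045 by edgeR), but not without 72 h replicate 1 (0.67, adjusted p = 0.30) or by DESeq2 (adjusted p = 0.054). Red blood cell genes fell for 5 of 6 (median -1.16; 1 of 6 under library totals), with Hba-a1 from 291, 202 and 325 CPM to 123, 84.4 and 108 CPM (-1.38 ± 0.31), and their near-identical copies share reads. Of 8 Schwann cell and neuronal genes 2 rose and 3 fell, with Mbp higher (1.69 ± 0.32). Of 5 atrial genes tested 3 rose, of 7 skeletal muscle genes 1 rose and 3 fell, and of 8 adipocyte genes only Fabp4, which endothelium also expresses, and Cfd could be tested. Fabp4 fell (-0.89 ± 0.11). The part of these cell types in the other results was not tested.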

How the data were processed

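Poly(A)-selected RNA was sequenced from 18 mice, 3 in each of 6 groups. Per the submitters' processing notes, reads were trimmed with cutadapt 1.18, aligned to mm10 with HISAT2 2.1.0 and counted with featureCounts. The annotation and any use of strand are not given in the sources used here, so reads of a gene and its antisense partner cannot be told apart. The authors deposited whole-number read counts per gene and FPKM values, which are the counts divided by gene length and library total. No molecular identifiers are described, so intervals and bounds cover counting error only.

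From the deposited counts, edgeR 4.0.16 (in R 4.3.3) kept 16311 of 30583 genes by filterByExpr, scaled the libraries by TMM and fitted its quasi-likelihood model across the 6 groups and 18 libraries. The contrast of 72 h with sham was tested two-sided, and a gene was called at an adjusted p (Benjamini-Hochberg, over all genes kept) under 0.05. Standard errors are the log2 fold change divided by the root of its F statistic. Where sham held only a few reads, as for Cthrc1, P4ha3 and Ccl8, this value can be smaller than the counting error. On data simulated with 200 changed genes and all others equal, 15688 genes were tested. The fit recovered 75.5% of the changed genes and called 10 unchanged ones. The wide shift in counts between sham and 72 h was not simulated, so this says nothing about the scaling.

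Symbols and shared exons come from GENCODE M21 (GRCm38), with 30512 gene IDs matched and 71 not. The members and the 50 gene lists were chosen with earlier results of these data known, and no test over a list was made. Named genes follow a rule: the 10 largest increases and decreases and the 8 largest gains and losses in CPM among called genes that average 50 counts or more, do not overlap between the groups and are not predicted genes, the 3 members of each list with the smallest adjusted p and its largest exception, cell type markers, and 13 isozyme pairs. List members given only as a log2 fold change were named after their values were seen. Shares and ratios were compared by an exact permutation test over the 6 libraries. Alternatives were other scalings, filters and tools (DESeq2 1.42.0, limma 3.58.1 on log2 FPKM), a fit to the 6 libraries alone, a replicate block and leaving out each library.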

Additional observations from a re-analysis of the deposited data

How the results depend on the processing

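The count of called genes stayed within 1.5 times 10831 in every alternative: 10056 to 10382 with 1 library left out, 10829 by DESeq2, 11459 with only the 6 libraries compared. Deviations of same-numbered replicates from their group means correlated at 0.10, -0.04 and -0.16, within the range of the other pairs (-0.22 to 0.24). With 3 mice a group this cannot show whether replicate numbers pair the mice. With the replicate number as a block 10784 genes were called (5546 higher, 5238 lower). Scaling moved the directions. With library totals 9472 genes were higher and 2382 lower, 5520 and 982 by at least 2-fold; without the mitochondrially encoded genes in the totals 1545 were lower by 2-fold. By limma on log2(FPKM + 1) these were 9570 and 2387, with 3630 changed 2-fold, 515 of them lower; with a pseudocount of 0.1 they were 9513 and 2396, with 5096 and 875 by 2-fold. FPKM are scaled to library totals, as in the first of these. With at least 10 counts in every library, 2039 genes were higher by 2-fold, and fewer genes are tested there.

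Among results chosen by the naming rule and list medians, signs that reversed under library totals, limma with a pseudocount of 1 and limma with 0.1 were the medians of glycolysis and hypoxia genes (0.19, 0.16 and 0.18) and of Schwann cell genes (0.22, 0.14 and 0.21), and Tap2 (0.25, 0.22 and 0.24), Cxcl12 (0.25, 0.23 and 0.24), Pecam1 (0.42, 0.41 and 0.41), Cdh5 (0.11, 0.092 and 0.093), Hk1 (0.17, 0.16 and 0.17) and Ldha (0.46, 0.45 and 0.45). Of 334 list members called lower, 28 had values above 0 under library totals. Of genes named as not passing, Canx, Cd163, Cenpf, Cox6a1, Cpt1a, Cxcl1, P4ha2, Pdgfrb, Prrx1, Tnf and Tpsb2 passed there, all higher. With at least 10 counts in every library the T and NK cell median was -1.29 and the skeletal muscle median -0.48, since few members remain. With 1 library left out, the skeletal muscle median ran from -0.17 to 0.24, and the difference in the mural share from -0.0126 to 0.00503 percentage points. The cause of these shifts was not tested.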

Other observations

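Long intergenic and antisense RNAs were more often lower than higher, unlike coding genes, and this difference was not tested. Of 13995 protein-coding genes tested, 5075 were higher and 4594 lower at 72 h, while of 429 long intergenic RNAs 89 were higher and 163 lower, and of 396 antisense RNAs 49 and 143. Without known use of strand, reads of an antisense RNA cannot be told from those of its partner. Of 708 processed pseudogenes 210 were higher and 123 lower, and these share reads with their parent genes.

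The noncoding RNAs and clock genes below were named after their values were seen. H19, an imprinted RNA of fetal tissue, went from 11.0, 8.04 and 8.66 CPM to 132, 90.2 and 161 CPM (edgeR, 3.79 ± 0.29, adjusted p = 2.0e-08). Meg3, Rian and Mirg, imprinted RNAs that lie together on chromosome 12, all rose (1.996 ± 0.33, 2.85 ± 0.22 and 3.39 ± 0.40). Meg3 went from 14.9, 11.46 and 13.2 CPM to 51.3, 32.9 and 73.7 CPM (adjusted p = 8.7e-05). Igf2, the neighbour of H19, rose less, from 37.7, 32.2 and 35.9 CPM to 54.5, 32.7 and 53.9 CPM, with overlapping groups (0.41 ± 0.17, adjusted p = 0.037). The host transcript of the muscle microRNA miR-133a, Mir133a-1hg, fell (-2.04 ± 0.26).

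Arntl, the activator of the circadian clock, stood opposite to the Per and Dbp genes, from 1.42, 1.04 and 1.02 CPM in sham to 24.1, 22.9 and 20.01 CPM at 72 h (edgeR, 4.27 ± 0.41, adjusted p = 1.6e-07). Its partner Clock rose less (0.72 ± 0.13), as did Npas2, a relative of Clock (1.77 ± 0.26), while Tef (-3.06 ± 0.18) and Nr1d2 (-2.27 ± 0.15) fell. For these 5 clock genes the 72 h and sham libraries did not overlap, which held for 75.8% of all genes tested.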
